A study of Mus musculus with 8 samples.

Results

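Glycolysis splits glucose into pyruvate, and many of its steps can be carried out by more than one enzyme, each encoded by its own gene. The 10 genes described here encode enzymes of this pathway and of the lactate step that follows it. They are the hexokinases Hk1 and Hk2, the glucose-6-phosphate isomerase Gpi1, the phosphofructokinases Pfkl, Pfkm and Pfkp, the aldolase Aldoc, the enolase Eno2, the pyruvate kinase Pkm and the lactate dehydrogenase subunit Ldhb. They were taken by gene name from a table of read counts with 34299 gene rows, and all 10 were found and passed the filter on low counts in both comparisons.

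The libraries came from whole brain and were made from poly-A-selected RNA. At gestation day 15, wild-type (WT) fetal brains gave 3 libraries, and fetal brains with a knockout (KO) of Cav1 gave another 3. A further 2 were made from KO brains of week 70. Cav1 encodes caveolin 1, the membrane protein of caveolae. All week 70 libraries carry the knockout, so age was compared within KO and genotype within day 15. Both comparisons use the same 3 KO day 15 libraries. Age and any difference in library handling between the ages cannot be told apart. The labels give no strain, sex or knockout construct, and they call the fetal replicates biological without naming litters. The p-values therefore measure the spread between these libraries.

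Hexokinase traps glucose in the cell by phosphorylating it. Hk1 is the main hexokinase of the brain and Hk2 is best known from muscle, fat and proliferating cells. Phosphofructokinase is a major control point of the pathway and works as a tetramer of liver-type (Pfkl), muscle-type (Pfkm) and platelet-type (Pfkp) subunits. In the adult brain Aldoc is typical of astrocytes and Eno2 of neurons, and the Ldhb subunit is the heart-type partner of the muscle-type Ldha.

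Counts of Cav1 itself were 367, 218 and 329 in WT, but 0, 3 and 1 in fetal KO brain and 1 and 5 at week 70. Total counts ran from 14110031 to 20833397 per library, and all 3 KO day 15 libraries were shallower than every other library. Depth and genotype therefore cannot be told apart at day 15. A count of 0 allows up to 3 counts, or 0.144 to 0.213 CPM (counts scaled to the library total) depending on the library, which covers counting error only. The groups also differed widely over the whole table: with edgeR's quasi-likelihood test and a Benjamini-Hochberg adjusted p under 0.05, 62.7% of 19147 tested genes differed between genotypes and 81.7% of 20000 between ages. WT replicate 1 stood apart in markers of other tissues: summed fibroblast markers reached 4466 CPM, against 285 CPM in the lowest WT library. Without that library 9 of the 10 genes were again called between genotypes. Of the neuron, astrocyte and progenitor marker lists no gene was at 0 in any library.

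The promoters of Hk2 and Pfkp are shown first because these genes moved in opposite directions between the genotypes. Hk2 showed the largest fall among the 10 genes and Pfkp the single called rise. Each line gives the 250 bases before the RefSeq transcription start (GRCm38.p6), 5′ to 3′ on the gene's own strand. Capitals mark ACGTG or GCGTG on either strand, the core letters of the hypoxia response element, through which hypoxia-inducible factor acts on many glycolytic genes.

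Hk2, chr6:82774455-82774704, minus strand: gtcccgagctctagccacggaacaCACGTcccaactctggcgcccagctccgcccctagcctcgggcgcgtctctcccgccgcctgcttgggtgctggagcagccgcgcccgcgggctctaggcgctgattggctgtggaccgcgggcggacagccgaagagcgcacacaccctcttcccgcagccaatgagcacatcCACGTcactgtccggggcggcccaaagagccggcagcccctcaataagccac
Pfkp, chr13:6648772-6649021, minus strand: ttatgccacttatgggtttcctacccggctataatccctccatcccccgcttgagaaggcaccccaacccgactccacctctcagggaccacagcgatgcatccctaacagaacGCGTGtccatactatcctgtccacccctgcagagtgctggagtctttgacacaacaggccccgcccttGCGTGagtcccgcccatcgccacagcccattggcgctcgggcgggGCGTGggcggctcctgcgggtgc

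The Hk2 window held 2 matches to ACGTG and the Pfkp window 3 matches to GCGTG. All 10 genes matched RefSeq by symbol, with 16 windows in all, and 11 of these windows held a match to either form. Among all 32851 windows of the same length the share was 38.6%. Both windows shown are rich in G and C: the Hk2 window was 69.6% and the Pfkp window 62.8% G or C. The median over all windows was 52.4%, and the 16 windows of the 10 genes ranged from 36.4% to 69.6%. A match is a description of the letters and not a binding site.

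Between the genotypes at day 15, 8 of the 10 genes were lower in KO brain, Pfkp was higher, and Gpi1 was not called. Over all tested genes 32.4% were called lower and 30.3% higher. The median log2 fold change was -0.88 over the 10 genes and 0.03 over all genes tested. In KO brain from day 15 to week 70, a comparison that shares its 3 fetal libraries with the one between genotypes, 8 of the 10 genes were higher at week 70, Pfkp was lower, and Hk2 was not called. Over all tested genes 37.5% were called higher and 44.2% lower in that comparison. The median log2 fold change was 2.85 over the 10 genes and -0.19 over all genes tested. Scaling matters for such counts over the whole table: 48.3% of the calls between genotypes were on the higher side, and 61.0% with upper-quartile scaling. In both comparisons 9 of the 10 genes had groups whose normalised CPM did not overlap, against 68.5% and 87.7% of all tested genes. These shares rest on genes picked by name, and part of the fetal difference moved with transcript length and GC content. When both were entered as a correction, 7 genes stayed called lower, 2 were called higher (Pfkp and Gpi1), the median became -0.40, and 50.4% of all genes tested were called.

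**Figure D1:**
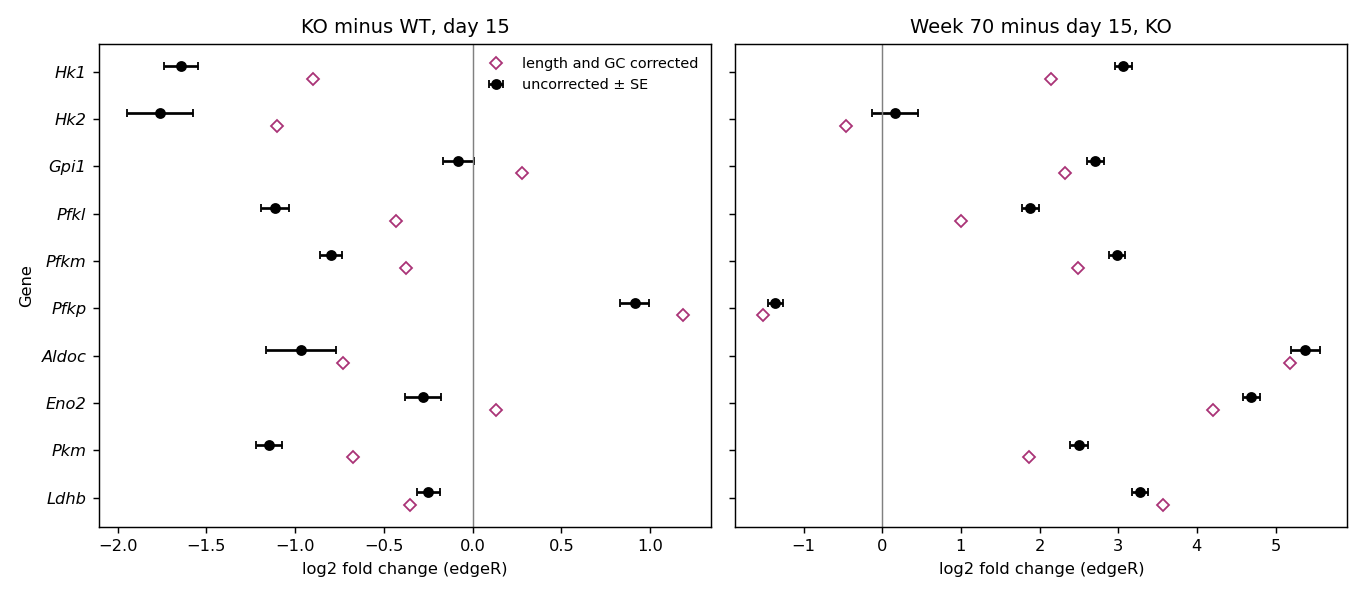
Log2 fold change of each gene between genotypes at day 15 and between ages in KO brain, with its standard error, from edgeR. Open diamonds give the values after the correction for length and GC content. Without that correction, Pfkp is the single gene above 0 between genotypes with a called difference. It is also the single gene called below 0 between ages.

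The order of levels, given as CPM per kilobase of the longest coding transcript, differed between the groups. In WT day 15 brain Pkm led at 238 ± 4.58 (SD, n = 3), followed by Pfkp at 105 ± 12.7 and Ldhb at 75.9 ± 1.91. Gpi1, Pfkm and Hk1 came next at 41.7 ± 3.86, 38.4 ± 0.71 and 37.5 ± 3.56, and their libraries overlapped. Pfkl and Aldoc followed at 29.4 ± 1.27 and 27.4 ± 3.70, also overlapping, then Eno2 at 19.0 ± 2.77, and Hk2 was lowest at 2.50 ± 0.33. In KO day 15 brain Pfkp stood first at 186 ± 5.15 and Pkm second at 101 ± 11.2. Below Ldhb, Gpi1 and Pfkm, the 4 genes Eno2, Aldoc, Pfkl and Hk1 lay between 11.3 and 14.7 and each overlapped its neighbours. At week 70 Ldhb, Pkm and Aldoc led with means of 624, 615 and 585 and could not be ordered, because their libraries overlapped. Hk2 was last in all 3 groups. The order of the other genes rests on the length used, because the union of annotated exons exceeds the longest transcript unevenly. It is 13401 against 4145 bases for Pfkp, 5001 against 2432 for Pkm and 1570 against 1304 for Ldhb.

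**Figure D2:**
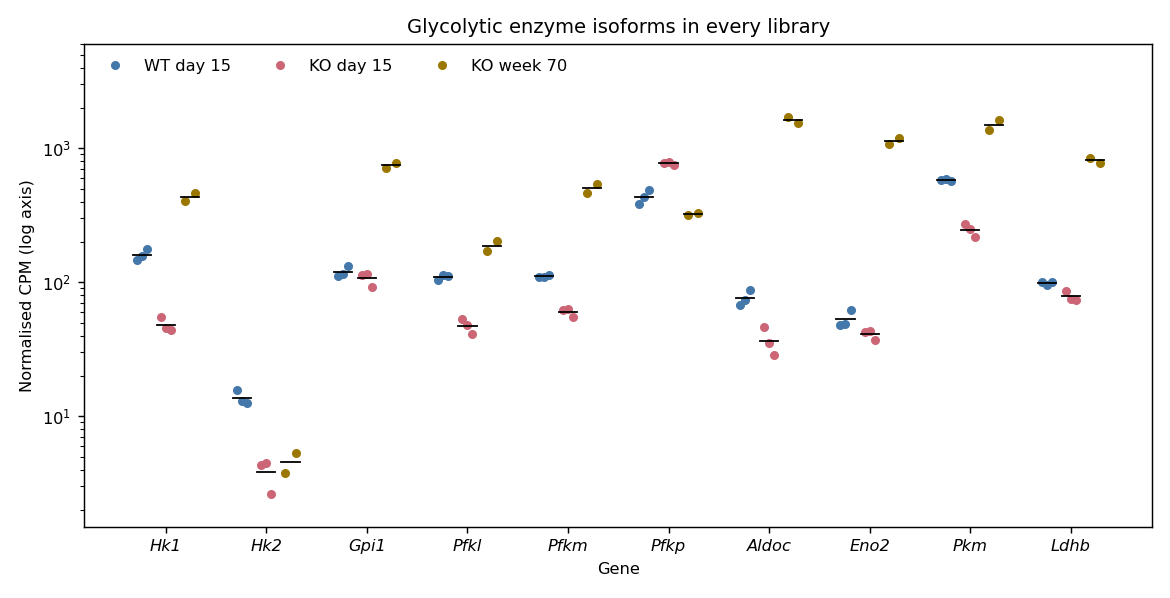
Normalised CPM of each gene in each of the 8 libraries on a log axis, with points coloured by group. The KO day 15 points lie below the WT points for 8 genes and above them for Pfkp, and the week 70 points lie above both fetal groups for 8 genes.

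Gene positions below are those of GENCODE M21 on GRCm38. Hk1 (chr10:62268855-62379908), the hexokinase that docks on mitochondria and carries most glucose phosphorylation in brain, was measured at 147, 158 and 177 CPM in the WT libraries. The KO day 15 libraries had 55.6, 45.3 and 44.2 CPM, all below every WT library, and the week 70 libraries had 405 and 461 CPM, above all fetal libraries. The KO minus WT log2 fold change was -1.64 (SE 0.09, edgeR adjusted p = 2.15e-08), and it was -0.90 after the correction for length and GC content. The rise from day 15 to week 70 was 3.06 on the log2 scale (SE 0.11, adjusted p = 1.31e-10), and 2.15 after the correction. An antisense gene, Hk1os, shares 157 exonic bases with Hk1 and held 4 to 20 counts per library, against 776 or more for Hk1.

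Hk2 (chr6:82725025-82774454) was the least abundant of the 10 genes. Its counts were 333, 254 and 243 in WT, 73, 81 and 46 in fetal KO brain and 59 and 78 at week 70. These correspond to 15.9, 13.0 and 12.5 CPM in WT, 4.37, 4.47 and 2.62 CPM in KO at day 15, and 3.80 and 5.34 CPM at week 70. Every WT library was above every KO library of either age, and the KO groups of both ages overlapped. The genotype difference was -1.76 on the log2 scale (SE 0.19, adjusted p = 1.64e-06) and -1.10 after the correction. Between ages the log2 fold change was 0.16 with an SE of 0.30 (adjusted p = 0.622), so no difference of Hk2 with age was detectable at this depth.

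The balance of the hexokinases was followed as the ratio of Hk2 to Hk1, each divided by its transcript length. The ratio was 0.084, 0.064 and 0.055 in the WT libraries and 0.061, 0.077 and 0.046 in the KO day 15 libraries, so the fetal groups overlapped. The log2 ratio differed between the genotypes by -0.15 (SE 0.28, exact two-sided permutation p = 0.7). Leaving out WT replicate 1 turned that difference to 0.018 and leaving out KO replicate 3 turned it to 0.041. At week 70 the ratio was 0.0073 and 0.0090, 7.39-fold below the KO day 15 libraries with no overlap. The exact permutation p was 0.2, the smallest that 3 libraries against 2 allow.

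As shares of the summed counts of Hk1, Hk2, Hk3 and Hkdc1 per length, Hk1 made up 91.7% ± 1.94 (SD, n = 3) in WT, 91.1% ± 1.54 (n = 3) in KO at day 15, and 95.8% and 96.8% in the week 70 libraries. The fetal groups overlapped and both week 70 libraries lay above them. Hk2 made up 6.17% ± 1.22 in WT, 5.55% ± 1.30 in KO at day 15, and 0.70% and 0.87% at week 70. Hk3, a hexokinase known from blood cells, had the one share among the 4 that separated the fetal groups. Its share was 2.39%, 1.19% and 1.29% in WT and 2.86%, 3.33% and 2.54% in KO. Its own level was nevertheless lower in KO (log2 fold change -0.77, edgeR adjusted p = 0.0417). The separation was narrow and rests on few counts, with Hk3 at means of 2.11 CPM in WT and 1.17 CPM in KO. Hkdc1, a hexokinase-like enzyme, was between 0.27% and 0.67% in the fetal libraries and 2.80% and 2.01% at week 70. Its mean at day 15 was 0.78 CPM in WT and 0.21 CPM in KO, so its fetal shares rest on few counts. The summed level of these 4 genes per kilobase was 40.9 ± 3.18 in WT, 12.4 ± 1.64 in KO at day 15, and 98.7 and 111 at week 70.

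Gpi1 (chr7:34201330-34230336), which converts glucose 6-phosphate to fructose 6-phosphate, had 112, 116 and 133 CPM in WT and 114, 115 and 92.5 CPM in KO at day 15. These groups overlapped, and KO minus WT came to -0.08 on the log2 scale (SE 0.09, adjusted p = 0.439). At week 70 it had 719 and 781 CPM, all above the fetal libraries, a difference of 2.71 on the log2 scale (SE 0.11, adjusted p = 2.65e-10). The Gpi1 row has a processed pseudogene, a copy without introns, and the genotype result depends on it. The pseudogene held 36.3% to 38.9% of the summed gene and pseudogene counts in WT and 27.7% to 31.1% in KO at day 15. At week 70 it held 0.14% to 0.15%, so the rise with age is smaller when both rows are summed. With both rows summed, the KO minus WT log2 fold change was -0.27 (adjusted p = 0.00865), whereas with the length and GC correction it was 0.28 (adjusted p = 0.00669). The direction for Gpi1 at day 15 was therefore not settled by these counts.

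Pfkp (chr13:6579768-6648777), the platelet-type subunit, was the one gene of the 10 that was higher in KO fetal brain. It had 382, 436 and 488 CPM in WT and 774, 791 and 748 CPM in KO at day 15, with every KO library above every WT library. At week 70 it had 316 and 328 CPM, below all 6 fetal libraries. The genotype difference was 0.91 on the log2 scale (SE 0.08, adjusted p = 3.26e-07) and 1.19 after the correction for length and GC content. The fall to week 70 was -1.36 (SE 0.09, adjusted p = 4.42e-08). Pfkp also has the lowest GC content of the 10 transcripts, 48.9%, where the others lie between 51.9% and 57.7%. Its annotated exons share 748 bases with Pitrm1 on the opposite strand, and whether counting used strand is not given in the sources used here. Pitrm1 was -0.18 on the log2 scale in KO at day 15 (adjusted p = 0.0257), in the direction opposite to Pfkp, with 911 to 1410 counts per fetal library against 8028 or more for Pfkp.

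Pfkm (chr15:98092589-98132451), the muscle-type subunit, had 110, 109 and 113 CPM in WT, 62.2, 62.7 and 54.7 CPM in KO at day 15, and 467 and 545 CPM at week 70. The 3 groups did not overlap. Its log2 fold change was -0.80 between genotypes (SE 0.06, adjusted p = 7.59e-08) and 2.98 between ages (SE 0.10, adjusted p = 6.52e-11). Skeletal muscle markers summed to 10.9 to 63.1 CPM in WT, 9.81 to 21.1 CPM in KO at day 15 and 20.9 to 28.2 CPM at week 70, and Tnnc2 of that list was at 0 in 7 of the 8 libraries. Pfkl (chr10:77986947-78010083), the liver-type subunit, had 104, 114 and 111 CPM in WT, 53.1, 48.3 and 41.5 CPM in KO at day 15, and 171 and 204 CPM at week 70. It also differed without overlap, by -1.11 between genotypes (SE 0.08, adjusted p = 2.77e-08) and 1.88 between ages (SE 0.11, adjusted p = 1.01e-08). After the correction for length and GC content the genotype differences were -0.38 for Pfkm and -0.43 for Pfkl, both still called, and the rise of Pfkl with age was 1.004.

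With Pfkp higher and both other subunits lower in KO fetal brain, the phosphofructokinases gave the largest shifts in ratio among the 7 isoform pairs followed. Per transcript length Pfkp made up 60.7% ± 2.43 (SD, n = 3) of the 3 subunits in WT, 84.7% ± 0.90 (n = 3) in KO at day 15, and 26.8% and 24.5% in the week 70 libraries. Pfkm made up 22.3% ± 1.62, then 9.46% ± 0.38, then 57.1% and 58.6%. Pfkl made up 17.0% ± 0.98, then 5.80% ± 0.56, then 16.1% and 16.9%. The leading subunit was thus Pfkp in the 6 fetal libraries and Pfkm in both week 70 libraries. The order within WT rests on the length used. With the union of all annotated exons as the length, which is long for Pfkp, WT shares were 39.5% for Pfkp and 40.5% for Pfkm with overlapping libraries. Those of KO day 15 were 69.7% and 21.7%, and those of week 70 were 11.8% and 74.4%. The summed level of the 3 subunits per kilobase was 173 ± 14.1 in WT and 220 ± 7.87 in KO at day 15, without overlap. Per longest transcript it was the one total of the 5 enzyme families that was higher in KO fetal brain. This difference also rests on the length used, because the union of exons is 13401 bases for Pfkp against 4145 for its longest transcript. Family totals were not computed with the union.

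**Figure D3:**
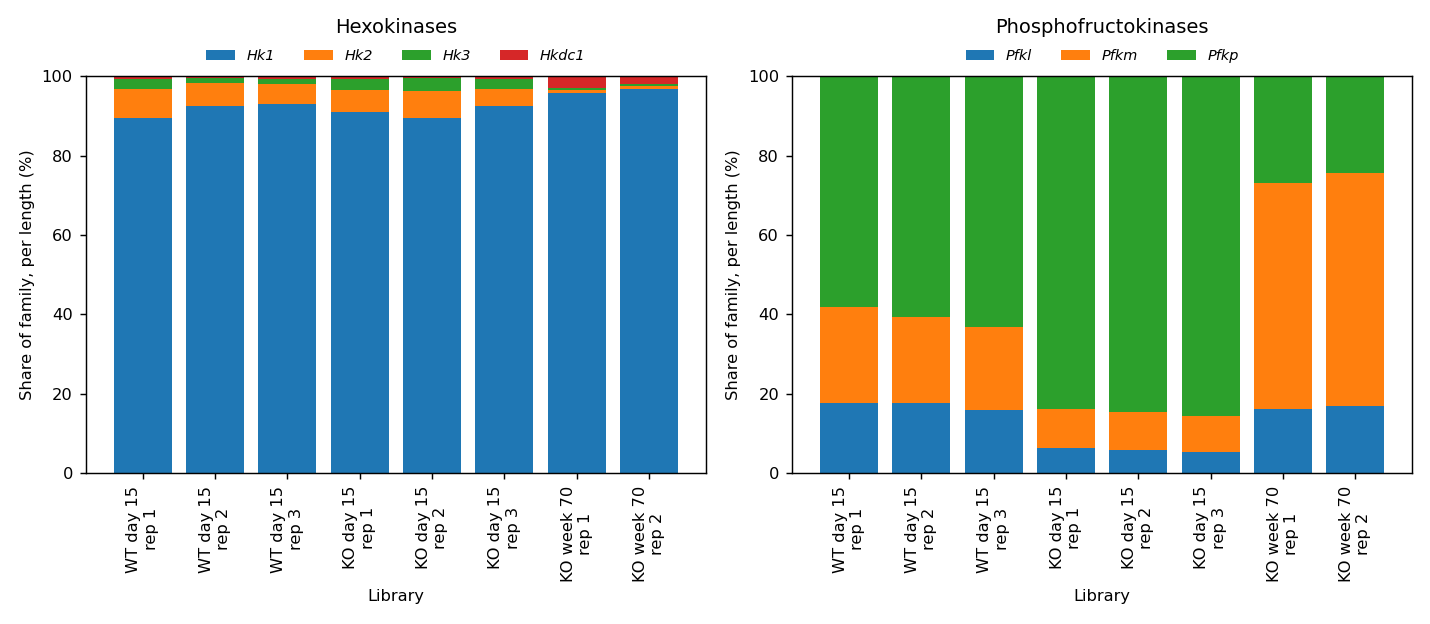
Share of each gene in its enzyme family per library, in percent of the family's counts per transcript length. Pfkp fills 84.7% of the phosphofructokinase bar on average in KO at day 15 and 25.6% at week 70, where Pfkm leads.

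The ratio of Pfkp to Pfkm, which does not depend on library scaling, was 2.41, 2.78 and 3.001 in WT and 8.65, 8.75 and 9.50 in KO at day 15. It was 3.29-fold higher in KO with no overlap (log2 difference 1.72, SE 0.10, exact permutation p = 0.1, the smallest possible with 3 against 3). At week 70 it was 0.469 and 0.417, 20.2-fold lower than in KO at day 15 (log2 difference -4.34, SE 0.09, exact permutation p = 0.2, the smallest possible). The ratio of Pfkp to Pfkl moved the same way, by 2.04 between genotypes (SE 0.12) and -3.24 between ages (SE 0.13). Pfkl lost ground to Pfkm in both comparisons, by -0.32 (SE 0.07) and -1.10 (SE 0.06). With the length and GC correction the genotype differences were 1.57 for Pfkp to Pfkm, 1.62 for Pfkp to Pfkl and -0.05 for Pfkl to Pfkm. Adjusted over the 14 ratios tested, every non-overlapping ratio had an exact permutation p of 0.233.

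**Figure D4:**
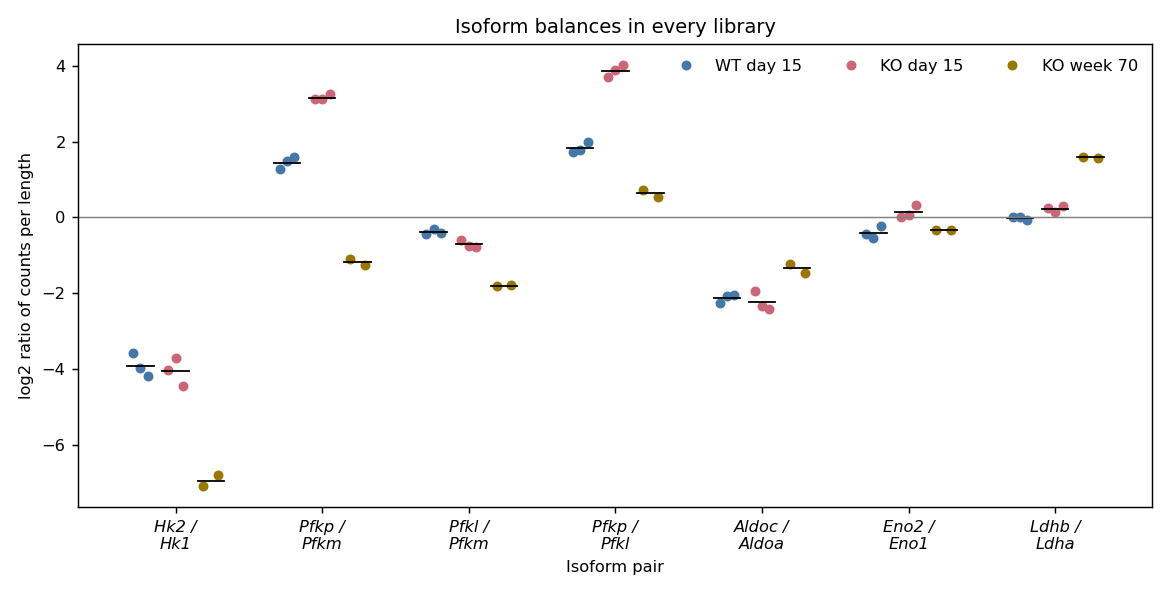
Log2 ratio of isoforms per transcript length in each library, for the 7 pairs followed. The Pfkp to Pfkm points move up from WT to KO at day 15 and down at week 70, and the Hk2 to Hk1 points of the fetal groups overlap.

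Phosphofructokinase answers to fructose 2,6-bisphosphate, which is made and broken down by the Pfkfb enzymes. Pfkfb3, the most strongly kinase-biased of them, was lower in KO at day 15 (log2 fold change -0.55, adjusted p = 1.03e-05), whereas Pfkfb2 was higher (0.25, adjusted p = 0.00362) and so was Pfkfb1 (0.70, adjusted p = 0.0218). The Pfkfb1 call was lost in the corrected analysis (adjusted p = 0.0848). Pfkfb4 was not called (-0.07, adjusted p = 0.459).

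Aldoc (chr11:78322968-78327781), the astrocyte-type aldolase, had 67.8, 73.3 and 87.8 CPM in WT, 46.5, 35.2 and 28.6 CPM in KO at day 15, and 1726 and 1534 CPM at week 70. Both differences were without overlap. KO minus WT was -0.97 on the log2 scale (SE 0.20, adjusted p = 0.00742), and -0.73 after the correction. The rise to week 70 was the largest of the 10 genes at 5.38 (SE 0.18, adjusted p = 1.89e-09), or 41.5-fold. Its partner Aldoa, the aldolase used in muscle and most other tissues, moved alongside it at day 15 (-0.88, SE 0.08, adjusted p = 3.28e-07) and between ages (4.51, SE 0.11, adjusted p = 6.18e-12).

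The ratio of Aldoc to Aldoa per length was 0.210, 0.239 and 0.240 in WT and 0.261, 0.196 and 0.189 in KO at day 15, with overlap (log2 difference -0.11, SE 0.16, exact permutation p = 0.6). At week 70 it was 0.428 and 0.361, 1.84-fold above KO day 15 without overlap (log2 difference 0.88, SE 0.19, exact permutation p = 0.2, the smallest possible). Aldoa nevertheless remained the more abundant aldolase per length in all 8 libraries. Astrocyte markers summed to 451 to 517 CPM in WT, 210 to 217 CPM in KO at day 15 and 6645 to 7013 CPM at week 70. Between genotypes 4 of the 7 were called lower and 1, Aqp4, higher. Gfap and S100b were not called and stood at means of only 0.93 and 1.13 CPM in WT. All 7 markers were called higher at week 70. Their part in the Aldoc result was not tested, and in whole tissue fewer cells of a type and less RNA per cell cannot be told apart.

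Eno2 (chr6:124760053-124769673), the neuronal enolase, differed little between genotypes and much between ages. It had 47.8, 49.2 and 61.9 CPM in WT, 42.4, 43.6 and 37.2 CPM in KO at day 15, and 1080 and 1190 CPM at week 70. The fetal difference of -0.28 on the log2 scale (SE 0.10, adjusted p = 0.0268) was without overlap. It was not called under other settings: with the correction for length and GC content it was 0.13 (adjusted p = 0.241), and without WT replicate 3 it was -0.16 (adjusted p = 0.111). The rise to week 70 was 4.69 (SE 0.11, adjusted p = 3.88e-12), or 25.8-fold. Eno1, the ubiquitous enolase, was lower in KO at day 15 (-0.80, SE 0.11, adjusted p = 7.42e-05) and rose with age by 5.14 (SE 0.14, adjusted p = 1.85e-11).

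Eno2 gained on Eno1 between genotypes, with ratios per length of 0.733, 0.683 and 0.854 in WT and 1.01, 1.05 and 1.25 in KO at day 15 (log2 difference 0.54, SE 0.14, exact permutation p = 0.1, the smallest possible). At week 70 the ratio was 0.796 and 0.797, below the KO fetal libraries (log2 difference -0.46, SE 0.10, exact permutation p = 0.2, the smallest possible). The fetal ratios and the direction with age depend on Eno1b, a retrotransposed copy of Eno1 with a row of its own. When Eno1b and its pseudogenes were added to Eno1, the log2 difference between ages was 1.19. Neuron markers summed to 1081 to 1272 CPM in WT, 784 to 820 CPM in KO at day 15 and 14416 to 15273 CPM at week 70. Of the 10, 6 were called lower and 1 higher between genotypes, and all 10 were called higher at week 70. Their part in the Eno2 values was not tested.

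Pkm (chr9:59656368-59679375), pyruvate kinase of muscle and brain, makes the last ATP of the pathway and was the most abundant of the 10 genes in WT. It had 583, 589 and 568 CPM in WT, 273, 249 and 218 CPM in KO at day 15, and 1380 and 1613 CPM at week 70. No groups overlapped, and the log2 fold change was -1.15 between genotypes (SE 0.07, adjusted p = 8.12e-09) and 2.50 between ages (SE 0.11, adjusted p = 8.82e-10). After the length and GC correction these were -0.67 and 1.87. Its processed pseudogenes held 13.95% to 14.2% of the summed counts in WT, 11.4% to 12.7% in KO at day 15 and 0.79% to 1.04% at week 70. With them added, the genotype difference was -1.18. The annotated gene Gm49759 shares 767 exonic bases with Pkm on the same strand. It had 852 to 969 counts per fetal library, against 3833 or more for Pkm. Its log2 fold changes in edgeR were opposite to those of Pkm. They were 0.36 between genotypes (adjusted p = 0.000226) and -3.36 between ages (adjusted p = 3.34e-05). How reads in the shared bases were assigned is not given in the sources used here.

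The gene gives the splice forms PKM1, typical of adult brain and muscle, and PKM2, typical of embryonic and dividing cells, and a count per gene cannot separate them. The factors that steer this splicing did not share one direction in KO at day 15. Ptbp1 fell by 0.92 on the log2 scale (edgeR adjusted p = 4.11e-07). Ptbp2, Hnrnpa1, Srsf3 and Rbm4 were higher by 0.32 to 0.59, and Hnrnpa2b1 was not called. From day 15 to week 70 all 6 of the factors listed were lower, by -1.08 to -2.19.

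Ldhb (chr6:142490249-142507957), the heart-type lactate dehydrogenase subunit, had 99.8, 96.2 and 101 CPM in WT, 86.1, 75.6 and 73.5 CPM in KO at day 15, and 852 and 775 CPM at week 70. The genotype difference was small and without overlap (-0.25, SE 0.07, adjusted p = 0.0043). With upper-quartile scaling, which moved the median of all tested genes from 0.03 to 0.20, it was -0.08 and lost its call (adjusted p = 0.298). The rise to week 70 was 3.28 (SE 0.10, adjusted p = 3.55e-11). Ldha was lower in KO at day 15 (-0.49, SE 0.07, adjusted p = 2.97e-05) and rose with age by 1.91 (SE 0.10, adjusted p = 2.70e-09).

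Per length of the longest transcript the 2 subunits were near parity in fetal WT brain, and Ldhb led at week 70. The fetal order rests on the length used: Ldhb made up 49.5% of the lactate dehydrogenase rows in WT per longest transcript, 59.8% per union of annotated exons and 41.4% without length scaling. At week 70 Ldhb led under each of these, with 75.1%, 82.0% and 68.4%. The ratio of Ldhb to Ldha was 1.01, 0.997 and 0.948 in WT, 1.18, 1.09 and 1.22 in KO at day 15, and 3.04 and 2.99 at week 70. The log2 difference was 0.24 between genotypes (SE 0.05, exact permutation p = 0.1) and 1.37 between ages (SE 0.05, exact permutation p = 0.2), each the smallest p possible. Ldhb pseudogene counts made up 12.8% to 15.8% of the sum in WT, 12.3% to 13.99% in KO at day 15 and 0.05% to 0.07% at week 70, and adding the pseudogenes of both genes left the genotype difference at 0.24.

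Copies of glycolytic genes matter for this pathway, since the mouse genome holds many processed pseudogenes of them. Reads of such a copy and its parent can be assigned to either row. No such copy aligned to Hk1, Hk2, Pfkl, Pfkm, Pfkp, Aldoc or Eno2. Among the other enzymes, pseudogenes held 83.0% to 85.6% of the summed Gapdh counts in WT, 74.0% to 76.2% in KO at day 15 and 24.6% to 29.5% at week 70. In the fetal libraries they held 68.7% to 71.5% for Pgam1, 66.1% to 70.1% for Eno1b and 37.4% to 55.4% for Pgk1. At week 70 the share was 0.63% to 0.65% for Pgam1, 0.47% to 0.86% for Pgk1 and 25.3% to 25.99% for Eno1b. Age and the handling of reads cannot be told apart in these shares. The rows of these 4 genes are therefore uncertain. So is the row of Eno1, of which Eno1b is a copy. In WT replicate 1 Eno1 held 994 counts, Eno1b 947 and the pseudogenes of Eno1b 2178.

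**Figure D5:**
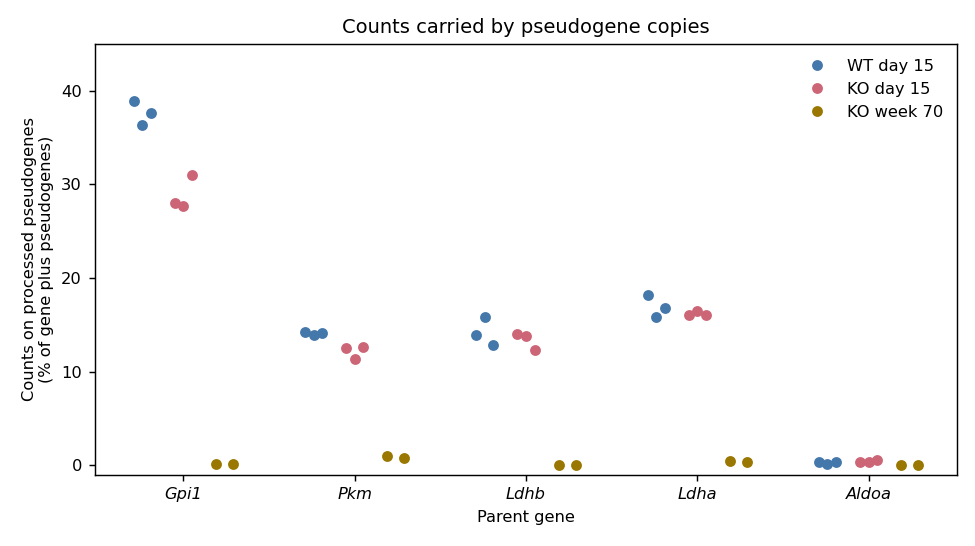
Share of processed pseudogene rows in the summed gene and pseudogene counts, in percent, per library. The share is far lower in the week 70 libraries than in the fetal libraries for Gpi1, Pkm and Ldhb.

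The other glycolytic genes did not share one direction between genotypes. Of 30 listed, 29 were in the table and 24 were tested at day 15: 8 were higher in KO, 9 lower and 7 not called, with a median log2 fold change of -0.07. The largest called rises among those with a mean of at least 50 counts were Pfkfb1 (0.70), Bpgm, which makes 2,3-bisphosphoglycerate in red cells (0.65), and Gapdhs, the sperm-type form of Gapdh (0.57). Erythroid markers summed to 979 to 1262 CPM in WT and 3520 to 4350 CPM in KO at day 15, and their part in the Bpgm value was not tested. The largest called falls were Eno1b (-1.20), Aldoa (-0.88) and Eno1 (-0.80). Between ages 11 of 24 tested were higher at week 70, 7 lower and 6 not called, with a median of 0.40. The largest rises were Pgk1, phosphoglycerate kinase (5.34), Hkdc1 (5.24), and Eno1 (5.14). With the counts of their copies added, Pgk1 rose by 4.57 and Eno1 by 3.49. Hkdc1 was near the floor in KO at day 15, at a mean of 0.21 CPM against 8.81 CPM at week 70. It did not pass the filter between genotypes, so its rise rests on its week 70 level. Among the largest falls were Gapdhs (-4.04) and Pfkfb2 (-1.31).

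Targets of hypoxia-inducible factor outside glycolysis also moved both ways at day 15. Of 9 tested, Ankrd37 (1.08), Bnip3 (0.67) and Vegfa (0.35) were higher in KO, Ndrg1 (-0.99) and Egln3 (-0.58) were lower, and 4 were not called.

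The fetal falls in Hk1, Hk2, Pkm and the other genes stood beside lower levels of progenitor and endothelial markers in KO. Progenitor markers summed to 1371 to 1577 CPM in WT and 608 to 621 CPM in KO at day 15, with all 7 called lower, and endothelial markers to 175 to 239 CPM and 49.8 to 65.0 CPM, with all 6 called lower. Several other marker lists went both ways between genotypes. Of 5 immature neuron markers 2 were called higher and 2 lower, of 5 oligodendrocyte markers tested 2 and 2, and of 5 microglial markers 1 and 2. Other lists had calls in 1 direction only. Of 7 erythroid markers 6 were called higher and 0 lower. Of 5 fibroblast markers 0 were called higher and 3 lower, and of 5 skeletal muscle markers tested 0 and 1. At week 70 the progenitor sum was 203 to 214 CPM and the endothelial sum 290 to 312 CPM. The age comparison moved with other cell types as well. Oligodendrocyte markers summed to 76.3 to 82.4 CPM in KO at day 15 and 13002 to 13335 CPM at week 70, with all 6 called higher, and microglial markers to 19.2 to 21.9 CPM and 330 to 400 CPM, with all 5 called higher. The part of these shifts in the enzyme values was not tested.

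The genes whose levels followed Hk2 most closely over the 8 libraries were Gas1, Ckap4 and Chst3, at root mean square distances of 0.17, 0.18 and 0.18 in centred log2 CPM, among 12870 candidates. Chst3, for example, had 12.4 to 13.98 CPM in WT, 2.73 to 4.64 CPM in fetal KO brain and 4.71 and 4.86 CPM at week 70. Those closest to Aldoc were Acsbg1, Kif5a and Kcnh3 (0.14, 0.16 and 0.16), and those closest to Eno2 were Tmem151a, Nceh1 and Atp1b1 (0.10, 0.12 and 0.14). The 8 libraries fall into 3 groups, so these distances rest largely on the group levels.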

How the data were processed

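Per the file headers, the authors' deposited table gives unnormalized read counts by gene, with a column for each of the 8 libraries. The submitters' processing notes name FastQC, cutadapt, Trimmomatic, HISAT2, featureCounts and edgeR, and both GRCm38 and GRCm39. Which build was used, and how strand and multiply mapped reads were handled, is not given in the sources used here.

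Genes were kept by filterByExpr (minimum count 10), scaled by TMM and tested with edgeR 4.0.16 in R 4.3.3 (two-sided quasi-likelihood F-test, Benjamini-Hochberg over all tested genes, threshold 0.05), in the libraries of each comparison alone. Normalised CPM used TMM factors over all 8 libraries. Isoform ratios used counts per length of the longest coding transcript in GENCODE M21 (97.3% of rows matched) and exact permutation tests. Where a name had more than 1 row, the row with more counts was used. Pseudogenes were aligned with minimap2 (50% aligned, 85% identity). The correction smoothed each library's deviation on length and GC content with mgcv 1.9.3. Alternatives included DESeq2 1.42.0. The procedure was also run on simulated data in which far fewer genes changed than were called here. That run therefore does not test the scaling under so wide a difference.

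The members and lists were chosen with earlier results of these data known. Named were the members, the partners Aldoa, Eno1 and Ldha, of the other glycolysis genes the 3 largest called rises and falls with a mean of at least 50 counts, and the 3 genes closest to Hk2, Aldoc and Eno2. The Pfkfb enzymes, the splicing factors, the hypoxia targets, Gapdh and the overlapping genes belong to fixed lists or were chosen after their values were seen. A gene that this rule names is not reported here, and shares of the hexokinases were taken over the 4 genes named with them.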

Additional observations from a re-analysis of the deposited data

How the results depend on the processing

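The number of the 10 genes called kept within 1.5 times of the reported 9 under every alternative run: 7 to 10 between genotypes and 9 in every setting between ages. With the replicate number as a block, 7 were called between genotypes, since Aldoc (adjusted p = 0.05004) and Eno2 (adjusted p = 0.0546) lost their calls, and 9 between ages. The numbers gave no sign of pairing. After each gene's group mean was subtracted, same-numbered WT and KO fetal libraries correlated at -0.15, -0.20 and -0.18. Differently numbered ones correlated at 0.067 to 0.105. Subtracting the group means ties these values to each other. Leaving out 1 library gave 8 or 9 calls between genotypes. Gpi1 at day 15 changed sign with upper-quartile scaling (0.092), the length and GC correction (0.28, and 0.28 with the block) and without KO replicate 3 (0.014), and was called with no filter (-0.17). Eno2 at day 15 changed sign with the correction (0.13, and 0.14 with the block) and lost its call with upper-quartile scaling (-0.11) and without WT replicate 3, KO replicate 1 or KO replicate 3. Hk2 between ages, not called, changed sign with upper-quartile scaling (-0.089), the block (-0.057), the correction (-0.46, and -0.65 with the block), without KO day 15 replicate 3 (-0.045) and without week 70 replicate 2 (-0.087), and ranged up to 0.39 with 1 library left out. The Hk2 to Hk1 ratio at day 15 changed sign without WT replicate 1 (0.018) and without KO replicate 3 (0.041), and ranged from -0.33 to 0.041 with 1 library left out. The Eno2 to Eno1 ratio between ages changed sign with pseudogene counts added, chosen after seeing the data (1.19). Upper-quartile scaling put 61.0% of the calls between genotypes on the higher side, against 48.3%, and 39.5% against 45.9% between ages. The correction called 9592 genes between genotypes, against 12005. With 3 libraries a group at most, no ratio can pass an adjusted p under 0.05, and the counts of Hk2 limit its precision.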
